A study of Homo sapiens with 4 samples.

Results

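DNA replication and S-phase genes encode the proteins that copy the genome. Expression of 47 such genes was examined in TR9-MeTA14 and TR15-MeTA5 cells, a pair of lines derived from the human prostate cancer cell line LNCaP, with or without tetracycline (+Tet or -Tet). The 47 genes were chosen by function, with earlier results of these data known. Each was read from its brightest probe, and all 47 had a probe among the 19483 genes that could be paired with one. Total RNA was labeled with Cy3 and hybridized to Agilent whole human genome microarrays, 1 array for each combination of line and treatment and 4 in all. The groups were TR9-MeTA14 -Tet, TR9-MeTA14 +Tet, TR15-MeTA5 -Tet and TR15-MeTA5 +Tet, and the +Tet cells had received tetracycline for 4 days. All 4 groups shared the same constructs and medium, although the lines were established separately. Each line carries a stably introduced Tet repressor (TR9 or TR15) and a stably introduced construct for NFkB (AD)-MBD, an activation domain fused to a methyl-CpG binding domain that is expressed when tetracycline is added, and both were grown in RPMI1640 with fetal bovine serum. This system is termed methyl-CpG targeted transcriptional activation (MeTA), and it was designed to turn on genes whose promoters are methylated. Each line is a single stable transfectant line, and no array of cells that carry the repressor alone was analysed here, so an effect of tetracycline itself cannot be told apart from that of the induced protein.

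Replication begins when the origin recognition complex, CDC6 and CDT1 load the MCM2 to MCM7 helicase onto DNA in G1. In S phase CDC45, the GINS complex and MCM10 turn the loaded helicase into an active one. Primase and the DNA polymerases then copy each strand with the sliding clamp PCNA, which the RFC complex loads, while RPA covers single-stranded DNA. Many of these genes are transcribed as cells pass from G1 into S, under E2F transcription factors, and in quiescent or arrested cells their mRNAs are generally low. In RNA from whole cultures, a smaller share of cells in S phase and less mRNA in each cell cannot be told apart.

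Values are given as scaled signals, that is, the background-subtracted signal of a probe over the 75th percentile of all probes on its array, which lay between 367 and 777 signal units. The share of 34127 probes that was well above background lay between 60.3% and 71.0%, highest in TR9-MeTA14 +Tet, and no spot was saturated. Levels of different probes are not comparable with each other. A fold change is +Tet over -Tet within a line on the log2 scale, with 2-fold as the cut-off. From repeated spots of the same probe, a log2 ratio of a pair of arrays had an SD of 0.087, which does not include the spread between cultures. Each group had 1 array, which limits the precision, and changes within a line have neither a replicate check nor a p-value.

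In TR9-MeTA14 cells most of the replication and S-phase genes were lower with tetracycline. Of 47 members, 26 were at least 2-fold lower, against 15.1% of all genes (2274 of 15075). Only POLE, the catalytic subunit of DNA polymerase epsilon, was at least 2-fold higher, against 16.8% of all genes. The median log2 fold change of the members was -1.09, whereas that of all genes was -0.06. A total of 42 members lay below the median of all genes, and 20 lay in the lowest 10% of all genes. CDC6 and MCM10 were well above background only without tetracycline in this line and therefore had to be lower. Without them, 24 of 45 members were at least 2-fold lower.

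In TR15-MeTA5 cells the same genes were only slightly lower. None of the 47 members was at least 2-fold lower, against 2.21% of all genes (317 of 14337), and none was at least 2-fold higher, against 9.78% of all genes. The median log2 fold change of the members was -0.40 and that of all genes was -0.16, a difference of -0.23. The members ranged from -0.93 (RRM2) to 0.50 (POLE). A total of 40 members lay below the median of all genes and 9 in the lowest 10%. How many fell below 0 depended on the scaling of the arrays: 43 with the 75th percentile, but 26 with scaling on spike-in probes, which moved the median of all genes to 0.20. Of all genes, 9188 of 14337 lay below 0 with the 75th percentile. Scaling on spike-in probes adds 0.36 to every log2 fold change in TR15-MeTA5 and 0.11 in TR9-MeTA14, so the values below are best read against those of all genes. Because members and other genes shift together, 40 members lay below the median of all genes under both scalings, and this count is no test of stability.

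No member was at least 2-fold lower in both lines, a pattern found in 0.838% of all genes (117 of 13970). Across the 47 members, the fold changes in the lines had a Pearson r of 0.63 and a Spearman rho of 0.57. This is a description across genes that share the same 4 arrays, and genes are not independent replicates. Of the 4 members above 0 in TR15-MeTA5 at this scaling, POLE, RPA2 and CDT1 were also above 0 in TR9-MeTA14 and CHAF1A was not. In TR15-MeTA5, RPA2 (0.07) and CDT1 (0.00) were closer to 0 than the SD of 0.087 from repeated spots.

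**Figure D1:**
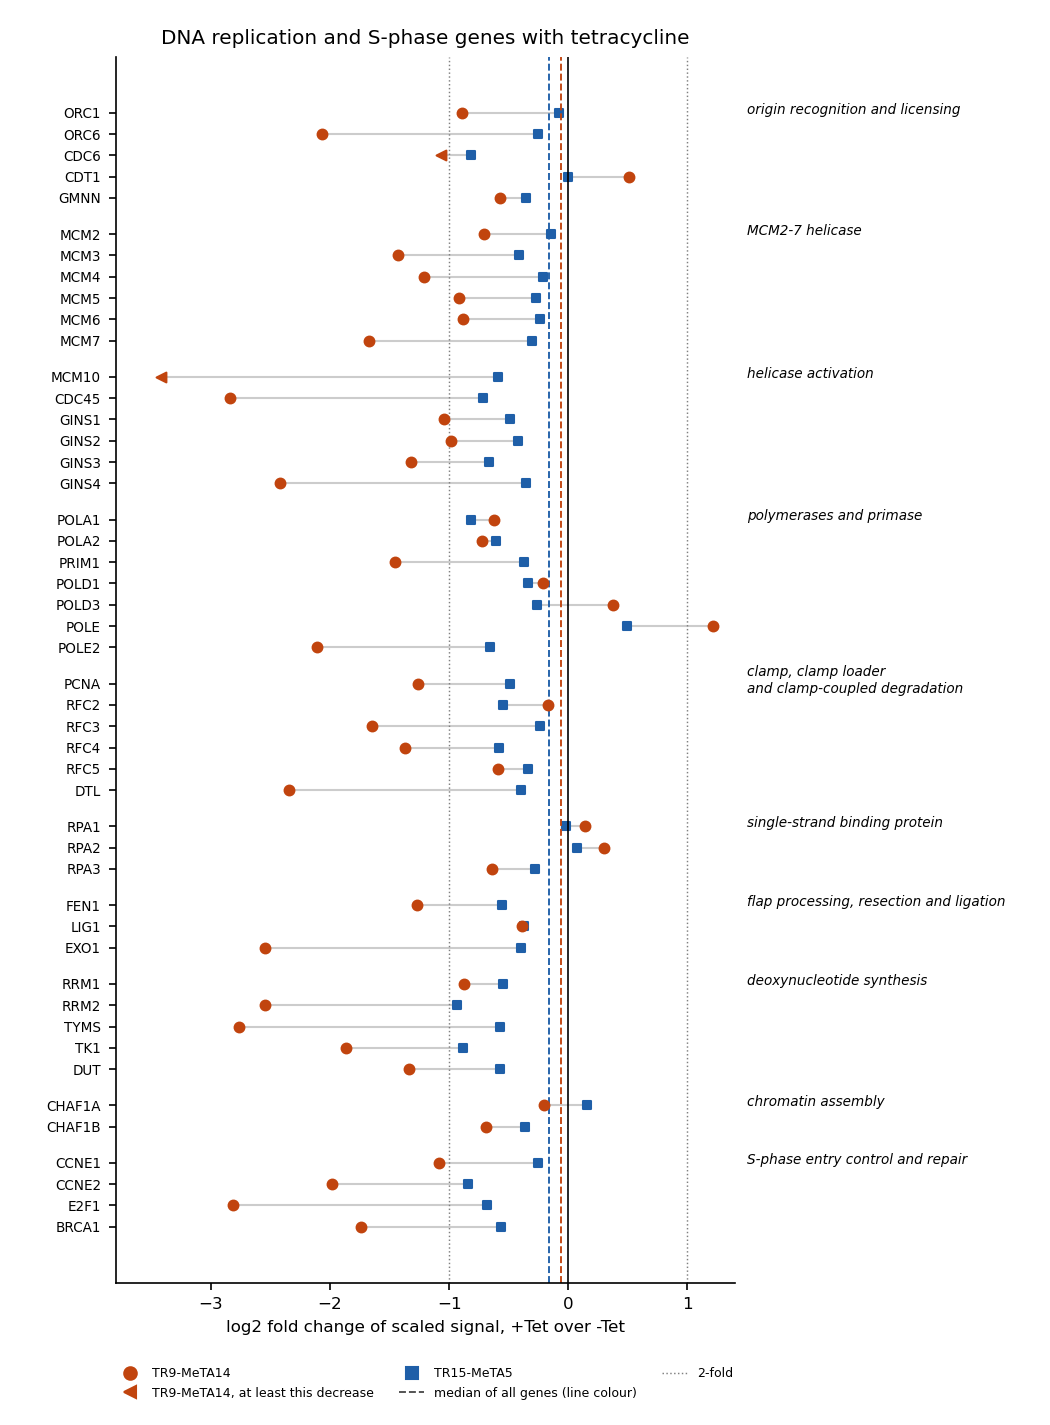
Log2 fold change of scaled signal, +Tet over -Tet, for the 47 members grouped by role, in TR9-MeTA14 (circles, or triangles where the decrease is at least the plotted size) and TR15-MeTA5 (squares), with 1 array per group and hence no error bars. Dashed lines mark the median of all genes in each line and dotted lines mark 2-fold. Of the members, 26 lie at or beyond 2-fold lower in TR9-MeTA14 and 0 in TR15-MeTA5.

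**Figure D2:**
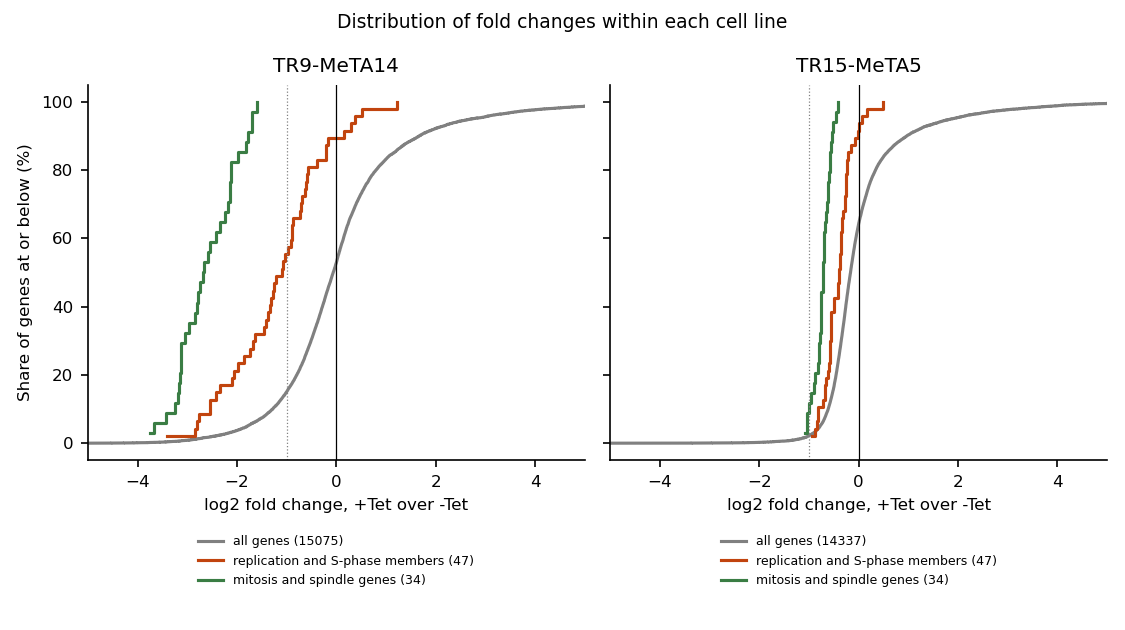
Share of genes (%) at or below each log2 fold change in TR9-MeTA14 (left) and TR15-MeTA5 (right) for all genes, the 47 members and 34 mitosis and spindle genes. Values beyond 5 in either direction are not drawn. At its middle the curve of the members lies to the left of that of all genes in both lines, with medians of -1.09 and -0.40, and the curve of the mitosis genes lies further left. In the lowest part of the TR15-MeTA5 panel no member lies at or below -1, against 2.21% of all genes.

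To show what the members share beyond their function, promoters from RefSeq (GRCh38.p14, 250 bases before to 50 bases after a start site) were searched on both strands for letters of E2F sites (TTTCGCGC, TTTGGCGC, TTTCCCGC and TTTGCCGC), for CCAAT, and for the cell cycle homology region (CHR: TTTGAA and TTCGAA). The table held a promoter for 40 of the 47 members, and where it listed several start sites for a gene (10 of the 40) the first was taken. Promoters are printed for the 4 members with the largest decreases over both lines among those with an entry and well above background on all 4 arrays (CDC45, E2F1, RRM2 and TYMS), the 2 with the largest increases (POLE and CDT1), and MCM6, which held the most E2F letters. Capitals mark every match to the letters searched.
CDC45 (chr22:19479670-19479969, plus strand): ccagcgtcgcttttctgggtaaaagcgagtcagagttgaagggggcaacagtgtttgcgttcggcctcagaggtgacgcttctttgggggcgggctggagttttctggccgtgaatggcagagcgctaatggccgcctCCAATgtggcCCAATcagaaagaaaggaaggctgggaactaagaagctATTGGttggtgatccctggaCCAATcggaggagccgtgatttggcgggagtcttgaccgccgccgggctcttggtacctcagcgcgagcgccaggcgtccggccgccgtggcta
E2F1 (chr20:33686336-33686635, minus strand): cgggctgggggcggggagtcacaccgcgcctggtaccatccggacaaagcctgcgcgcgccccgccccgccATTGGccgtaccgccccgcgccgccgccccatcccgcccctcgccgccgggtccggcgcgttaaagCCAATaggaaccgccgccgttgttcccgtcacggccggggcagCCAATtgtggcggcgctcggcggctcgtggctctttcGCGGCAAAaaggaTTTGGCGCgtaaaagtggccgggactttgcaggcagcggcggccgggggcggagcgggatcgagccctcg
RRM2 (chr2:10122489-10122788, plus strand): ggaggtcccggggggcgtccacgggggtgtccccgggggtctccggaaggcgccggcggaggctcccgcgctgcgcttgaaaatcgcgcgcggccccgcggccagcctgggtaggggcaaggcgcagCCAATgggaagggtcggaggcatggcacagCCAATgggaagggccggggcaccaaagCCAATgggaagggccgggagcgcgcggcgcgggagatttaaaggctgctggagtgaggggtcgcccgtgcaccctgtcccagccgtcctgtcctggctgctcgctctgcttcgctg
TYMS (chr18:657403-657702, plus strand): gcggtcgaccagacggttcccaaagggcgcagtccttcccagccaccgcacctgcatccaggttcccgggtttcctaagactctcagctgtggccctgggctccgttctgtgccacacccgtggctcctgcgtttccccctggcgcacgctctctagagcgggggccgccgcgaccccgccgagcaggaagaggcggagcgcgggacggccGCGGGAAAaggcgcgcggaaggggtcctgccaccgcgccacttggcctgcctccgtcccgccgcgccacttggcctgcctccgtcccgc
POLE (chr12:132687293-132687592, minus strand): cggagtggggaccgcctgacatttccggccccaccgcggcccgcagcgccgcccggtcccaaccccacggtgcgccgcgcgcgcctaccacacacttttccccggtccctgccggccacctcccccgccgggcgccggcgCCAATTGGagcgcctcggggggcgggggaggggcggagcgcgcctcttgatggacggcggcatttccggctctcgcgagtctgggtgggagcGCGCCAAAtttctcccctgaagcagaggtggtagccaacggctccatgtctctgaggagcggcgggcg
CDT1 (chr16:88803539-88803838, plus strand): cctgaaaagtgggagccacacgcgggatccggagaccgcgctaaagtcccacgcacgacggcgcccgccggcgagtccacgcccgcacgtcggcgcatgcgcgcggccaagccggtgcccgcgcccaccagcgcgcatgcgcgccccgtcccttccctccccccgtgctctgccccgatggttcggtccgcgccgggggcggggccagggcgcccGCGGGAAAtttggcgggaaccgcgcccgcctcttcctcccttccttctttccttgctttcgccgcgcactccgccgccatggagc
MCM6 (chr2:135876394-135876693, minus strand): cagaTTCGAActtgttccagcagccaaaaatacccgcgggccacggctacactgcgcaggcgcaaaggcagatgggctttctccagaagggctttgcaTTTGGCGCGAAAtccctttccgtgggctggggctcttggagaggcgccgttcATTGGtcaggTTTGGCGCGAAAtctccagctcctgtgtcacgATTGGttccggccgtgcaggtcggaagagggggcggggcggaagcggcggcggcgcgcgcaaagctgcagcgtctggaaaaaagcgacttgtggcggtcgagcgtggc

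E2F letters were found in the promoters of 20 of 40 members (50%), against 3.33% of all 27305 promoters and 4.44% of those of genes paired with a probe. When every listed start site was searched, the counts were 22 of 40 members (55%) and 3.99% of all genes. Of 27 matches in the members, 19 began within 60 bases of the start site. E2F1 held 2 matches, GCGGCAAA and TTTGGCGC. MCM6 held 4, in 2 copies of TTTGGCGCGAAA, where matches on opposite strands overlap. CCAAT was found in 52.5% of member promoters and 35.7% of all promoters, with 4 matches in CDC45 and 3 in RRM2. Neither of these promoters held the E2F letters searched, and other forms of E2F site were not searched. CHR letters were found in 5% of member promoters and 16.6% of all promoters. The members were also rich in CpG, with a median of 31 per promoter (13 to 48) against 14 for all promoters and 22 for genes paired with a probe. Other lists were searched in the same way: replication genes outside the members, further S-phase and E2F-regulated genes, and mitosis genes. In that order, CCAAT was found in 55.6%, 60% and 82.8% of promoters, so it was not particular to the members. E2F letters were found in 18.5%, 35% and 10.3%, and CHR letters in 3.70%, 5% and 79.3%. The median number of CpG was 23, 27.5 and 23.

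Members with and without E2F letters lay close together in both lines. In TR9-MeTA14 the median log2 fold change was -1.16 for the 20 members with E2F letters and -1.18 for the 20 without, and 12 and 11 of them were at least 2-fold lower. In TR15-MeTA5 the medians were -0.41 and -0.46. POLE and CDT1, which were higher in TR9-MeTA14, held 1 match each, as did TYMS, which was among the lowest. A match is a description of letters in this window and says nothing of whether a factor binds there. Only the listed letters were searched, so a member counted as without them may hold another form of E2F site.

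Among the genes of origin recognition and licensing, 2 of 5 were at least 2-fold lower in TR9-MeTA14 and 0 of 5 in TR15-MeTA5. ORC6, a subunit of the origin recognition complex, had scaled signals of 0.642 (-Tet) and 0.153 (+Tet) in TR9-MeTA14 and 1.02 and 0.855 in TR15-MeTA5. Its log2 fold changes were -2.07 and -0.26, so that the arrays differed by over 2-fold in TR9-MeTA14 alone. ORC1, the largest subunit, had log2 fold changes of -0.89 and -0.08. CDC6, the loading factor that works with the origin recognition complex, was dim, with scaled signals of 0.0376 (-Tet) and 0.0144 (+Tet) in TR9-MeTA14 and 0.0813 and 0.0463 in TR15-MeTA5. It was not well above background in TR9-MeTA14 +Tet, so that its decrease was at least 2.10-fold there, and it was 1.76-fold lower in TR15-MeTA5. CDT1, which brings the helicase to origins, went the other way, with scaled signals of 1.69 (-Tet) and 2.40 (+Tet) in TR9-MeTA14 and 3.57 and 3.57 in TR15-MeTA5. The log2 fold change of CDT1 was 0.51 in TR9-MeTA14 and 0.00 in TR15-MeTA5. GMNN, the inhibitor of CDT1, had log2 fold changes of -0.57 and -0.35.

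All 6 subunits of the MCM2 to MCM7 helicase lay below 0 in both lines, as did 6622 of 13970 genes. With spike-in scaling all 6 lay below 0 in TR9-MeTA14 and MCM3 alone in TR15-MeTA5. In TR9-MeTA14, 3 of the 6 subunits were at least 2-fold lower. MCM2 had scaled signals of 4.09 (-Tet) and 2.51 (+Tet) in TR9-MeTA14 and 9.18 and 8.30 in TR15-MeTA5. MCM3 had 6.69 (-Tet) and 2.49 (+Tet) in TR9-MeTA14 and 14.1 and 10.6 in TR15-MeTA5. MCM4 had 0.791 (-Tet) and 0.341 (+Tet) in TR9-MeTA14 and 1.56 and 1.35 in TR15-MeTA5. At this scaling the 6 subunits ran in parallel, each with its lowest value in TR9-MeTA14 +Tet and its highest in TR15-MeTA5 -Tet. With spike-in scaling TR15-MeTA5 -Tet was not the highest array for any subunit but MCM3. The signals of MCM5 were 2.61 (-Tet) and 1.38 (+Tet) in TR9-MeTA14 and 5.96 and 4.93 in TR15-MeTA5. Those of MCM6 were 2.38 (-Tet) and 1.28 (+Tet) in TR9-MeTA14 and 4.98 and 4.22 in TR15-MeTA5. Those of MCM7 were 31.2 (-Tet) and 9.79 (+Tet) in TR9-MeTA14 and 69.6 and 56.4 in TR15-MeTA5. The log2 fold changes in TR9-MeTA14 lay between -1.67 (MCM7) and -0.71 (MCM2), with a median of -1.06. In TR15-MeTA5 they lay between -0.41 (MCM3) and -0.15 (MCM2), with a median of -0.26, which was 0.09 below the median of all genes in that line.

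The factors that activate the helicase were among the lowest members. In TR9-MeTA14, 5 of 6 were at least 2-fold lower and their median was -1.87, and in TR15-MeTA5 the median was -0.54. CDC45, which joins the helicase in its active form, had scaled signals of 3.61 (-Tet) and 0.504 (+Tet) in TR9-MeTA14 and 6.49 and 3.96 in TR15-MeTA5. It was 7.17-fold lower in TR9-MeTA14 and 1.64-fold lower in TR15-MeTA5. MCM10, which is needed for the helicase to move, had scaled signals of 0.192 (-Tet) and 0.0160 (+Tet) in TR9-MeTA14 and 0.407 and 0.270 in TR15-MeTA5. Because MCM10 was not well above background in TR9-MeTA14 +Tet, its log2 fold change there was -3.42 or lower, against -0.59 in TR15-MeTA5. GINS4, 1 of the 4 subunits of the GINS complex, had scaled signals of 1.23 (-Tet) and 0.229 (+Tet) in TR9-MeTA14 and 1.52 and 1.18 in TR15-MeTA5. Its log2 fold changes were -2.42 and -0.36. The other GINS subunits were closer together, between -1.32 (GINS3) and -0.98 (GINS2) in TR9-MeTA14 and between -0.67 and -0.42 in TR15-MeTA5. GINS2 thus lay just short of 2-fold (1.97-fold).

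The polymerases and primase were the most mixed role, with 2 of 7 at least 2-fold lower and 1 at least 2-fold higher in TR9-MeTA14. POLE2, the second subunit of polymerase epsilon, had scaled signals of 0.178 (-Tet) and 0.0413 (+Tet) in TR9-MeTA14 and 0.322 and 0.205 in TR15-MeTA5. PRIM1, the catalytic subunit of primase, had 1.12 (-Tet) and 0.410 (+Tet) in TR9-MeTA14 and 1.55 and 1.20 in TR15-MeTA5. Both were lower in TR9-MeTA14, by 4.31-fold and 2.74-fold. In contrast, POLE had scaled signals of 0.205 (-Tet) and 0.475 (+Tet) in TR9-MeTA14 and 0.225 and 0.318 in TR15-MeTA5, higher with tetracycline in both lines by 2.32-fold and 1.41-fold. The second probe of POLE gave log2 fold changes of 0.47 and 0.20, and POLE was below 2-fold when its probes were averaged or after normexp background correction. POLD3, an accessory subunit of polymerase delta, had scaled signals of 0.671 (-Tet) and 0.873 (+Tet) in TR9-MeTA14 and 1.16 and 0.970 in TR15-MeTA5. It was higher with tetracycline in TR9-MeTA14 (0.38), and in TR15-MeTA5 its log2 fold change was -0.26, or 0.10 with spike-in scaling. POLA1, the catalytic subunit of polymerase alpha, had log2 fold changes of -0.62 and -0.82, and POLA2, its partner, had -0.73 and -0.61. The catalytic subunit of polymerase delta, POLD1, had -0.21 and -0.34.

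Among the clamp genes, 4 of 6 were at least 2-fold lower in TR9-MeTA14. PCNA, the sliding clamp, had scaled signals of 4.71 (-Tet) and 1.96 (+Tet) in TR9-MeTA14 and 10.8 and 7.75 in TR15-MeTA5. Its log2 fold changes were -1.26 and -0.48, and a second PCNA probe gave -1.26 and -0.56. RFC3, a subunit of the clamp loader, had scaled signals of 0.309 (-Tet) and 0.0986 (+Tet) in TR9-MeTA14 and 0.616 and 0.522 in TR15-MeTA5. The loader subunits differed from each other in TR9-MeTA14, with log2 fold changes of -1.65 for RFC3, -1.37 for RFC4, -0.59 for RFC5 and -0.17 for RFC2. In TR15-MeTA5 they lay between -0.58 (RFC4) and -0.24 (RFC3). DTL, which directs the destruction of CDT1 on PCNA, had scaled signals of 0.489 (-Tet) and 0.0961 (+Tet) in TR9-MeTA14 and 1.48 and 1.13 in TR15-MeTA5. DTL was thus 5.08-fold lower in TR9-MeTA14 and 1.31-fold lower in TR15-MeTA5.

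RPA, the single-strand binding protein, differed little with tetracycline. None of its 3 subunits reached 2-fold in either line. RPA1 had scaled signals of 9.36 (-Tet) and 10.3 (+Tet) in TR9-MeTA14 and 16.0 and 15.8 in TR15-MeTA5. RPA2 had 4.34 (-Tet) and 5.35 (+Tet) in TR9-MeTA14 and 5.66 and 5.96 in TR15-MeTA5. RPA3 had log2 fold changes of -0.64 and -0.28. A dimmer second probe of RPA1 gave 1.06 and 0.56, in place of 0.14 and -0.02, so that the fold change of RPA1 depended on the probe.

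The enzymes that finish the strands were lower to different degrees. EXO1, an exonuclease of resection and mismatch repair, was dim in TR9-MeTA14 and brighter in TR15-MeTA5, with scaled signals of 0.268 (-Tet) and 0.0459 (+Tet) in TR9-MeTA14 and 1.23 and 0.934 in TR15-MeTA5. It was 5.84-fold lower in TR9-MeTA14 and 1.32-fold lower in TR15-MeTA5. FEN1, which cuts the flaps of Okazaki fragments, had log2 fold changes of -1.27 and -0.55. LIG1, the ligase that joins the fragments, had -0.39 and -0.37, nearly the same in both lines.

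Genes for the synthesis of deoxynucleotides were lower with tetracycline in both lines, also with spike-in scaling, with medians of -1.87 in TR9-MeTA14 and -0.58 in TR15-MeTA5, and 4 of 5 at least 2-fold lower in the former. RRM2, the S-phase subunit of ribonucleotide reductase, had scaled signals of 0.545 (-Tet) and 0.0931 (+Tet) in TR9-MeTA14 and 0.924 and 0.484 in TR15-MeTA5. Its decrease of 1.91-fold was the largest of any member in TR15-MeTA5. The large subunit, RRM1, had log2 fold changes of -0.88 and -0.54. TYMS, which makes thymidylate, had scaled signals of 9.86 (-Tet) and 1.45 (+Tet) in TR9-MeTA14 and 23.2 and 15.6 in TR15-MeTA5. TK1, the thymidine salvage kinase, had 44.9 (-Tet) and 12.3 (+Tet) in TR9-MeTA14 and 85.6 and 46.4 in TR15-MeTA5. Both TYMS and TK1 were lower in each line, and for TYMS the 2 arrays of TR9-MeTA14 were 6.79-fold apart. DUT, which removes dUTP, had log2 fold changes of -1.34 and -0.58. The subunits of the chromatin assembly factor, which deposits histones behind the fork, reached 2-fold in neither line, with -0.20 and 0.16 for CHAF1A and -0.69 and -0.36 for CHAF1B.

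All 4 genes of S-phase entry control and repair were at least 2-fold lower in TR9-MeTA14 and none in TR15-MeTA5. E2F1, the transcription factor of the G1/S transition, had scaled signals of 0.719 (-Tet) and 0.102 (+Tet) in TR9-MeTA14 and 2.22 and 1.38 in TR15-MeTA5. Its log2 fold changes were -2.81 and -0.68. CCNE2, a cyclin that activates CDK2 at the start of S phase, had scaled signals of 0.540 (-Tet) and 0.136 (+Tet) in TR9-MeTA14 and 0.559 and 0.313 in TR15-MeTA5. At this scaling the untreated levels of CCNE2 were almost equal in the 2 lines, unlike those of E2F1, and its log2 fold changes were -1.99 and -0.84. The related cyclin CCNE1 had -1.09 and -0.26. BRCA1, which acts in homologous recombination, had scaled signals of 0.345 (-Tet) and 0.103 (+Tet) in TR9-MeTA14 and 0.723 and 0.489 in TR15-MeTA5, and it was 3.34-fold lower in TR9-MeTA14.

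**Figure D3:**
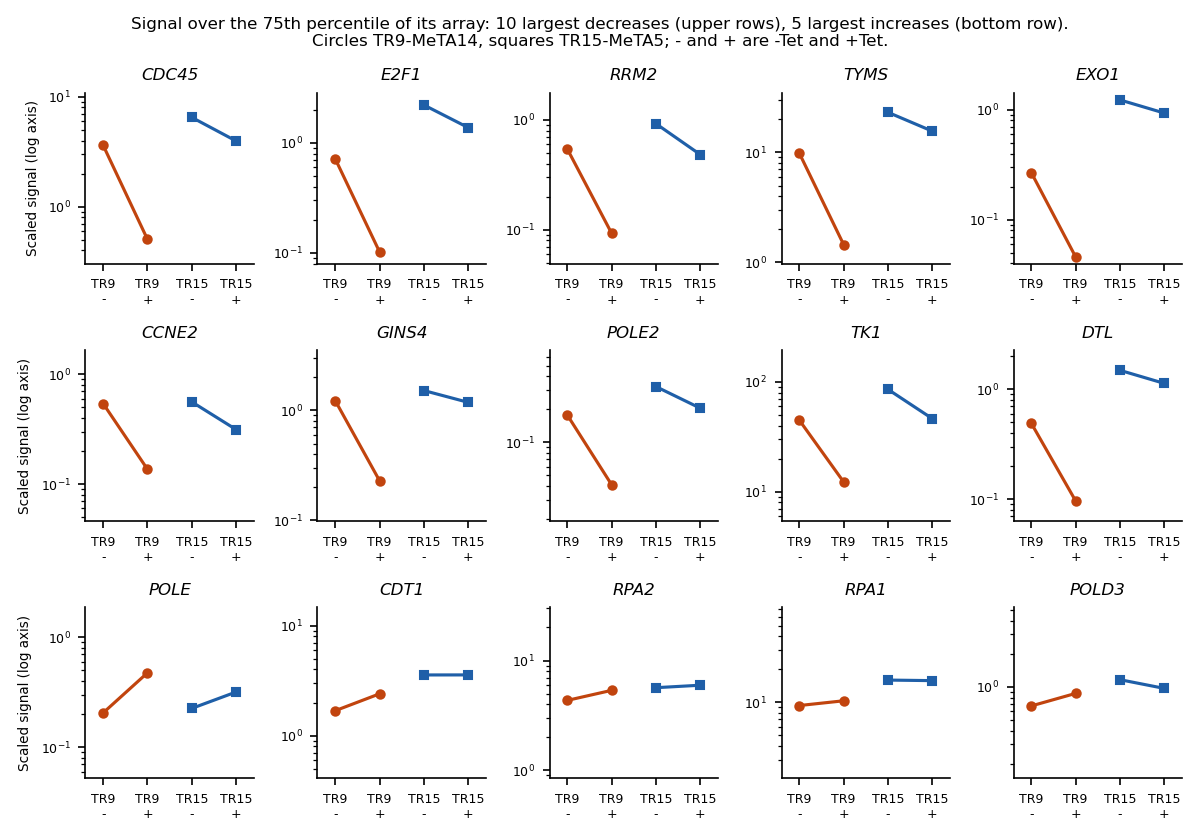
Scaled signal (log axis) on each of the 4 arrays for the 10 members with the largest decreases and the 5 with the largest increases by the mean of both lines, among members well above background on all arrays. Lines join -Tet and +Tet of the same cell line, and each point is 1 array. The 10 members of the upper rows have their lowest value in TR9-MeTA14 +Tet, whereas POLE is higher with tetracycline in both lines.

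Tested over both lines with limma, which treats the lines as repeats of the same contrast, none of the 47 members was lower or higher at an adjusted p below 0.05. Among all 22808 probes tested, 3 (0.0132%) were lower at that threshold. With the brightest probe of each gene, 14458 genes were tested, of which 2 were lower and 466 higher at that threshold. At an unadjusted p below 0.05, 16 members were lower and 0 higher, against 8.01% of all probes lower (1826). Of the 14458 genes, 1204 were lower and 1903 higher at this unadjusted threshold. TK1 had the smallest p, with a log2 fold change of -1.38 ± 0.36 (SE) and an adjusted p of 0.184 by limma with Benjamini-Hochberg adjustment. CDC45 followed the same direction with a wider error, at -1.78 ± 0.57 and an adjusted p of 0.235. The test has 1 residual degree of freedom, and unequal sizes of effect in the lines enter its error.

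For 39 of the 47 members the log2 fold change with tetracycline lay lower in TR9-MeTA14 than in TR15-MeTA5, against 6740 of 13970 genes. The median of the differences (TR15-MeTA5 minus TR9-MeTA14) was 0.72, against -0.03 for all genes. In 17 members the fold changes were at least 2-fold apart, compared with 2947 of 13970 genes. These were ORC6, MCM3, MCM4, MCM7, MCM10, CDC45, GINS4, PRIM1, POLE2, RFC3, DTL, EXO1, RRM2, TYMS, CCNE2, E2F1 and BRCA1. The largest differences were at least 2.83 for MCM10, 2.19 for TYMS, 2.15 for EXO1 and 2.13 for both E2F1 and CDC45. An interaction cannot be estimated with error from 4 arrays, so whether the lines differ beyond the spread between cultures was not tested. The 8 members whose log2 fold change lay lower in TR15-MeTA5 were CDT1, POLA1, POLD1, POLD3, POLE, RFC2, RPA1 and RPA2. Of these, POLA1, POLD1 and RFC2 had the larger decrease in TR15-MeTA5. The others were higher with tetracycline in TR9-MeTA14, by more than the size of their change in TR15-MeTA5.

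Without tetracycline, the members were higher in TR15-MeTA5 than in TR9-MeTA14 when set against other genes. A total of 24 members were at least 2-fold higher, against 8.17% of all genes (1126 of 13788), and 0 were at least 2-fold lower, against 5.19%. The median log2 difference was 1.07 for the members and 0.12 for all genes, and 46 of 47 lay above the median of all genes. The absolute size depended on the scaling: with spike-in probes 1 member was at least 2-fold higher and 23 lay below 0. The median of all genes moved to -0.91, with 46 members above it. Because spike-in scaling shifts members and other genes by the same amount, this last count is no test of stability. The largest differences were those of EXO1 (2.20), E2F1 (1.63), DTL (1.60) and GINS2 (1.53). The MCM2 to MCM7 subunits were close to each other, between 0.98 and 1.19. CCNE2 (0.05), POLE (0.13), CHAF1B (0.30) and GINS4 (0.30) differed least. The untreated arrays also enter the fold changes of each line, so the untreated difference and the effects of tetracycline share arrays and were not correlated with each other.

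**Figure D4:**
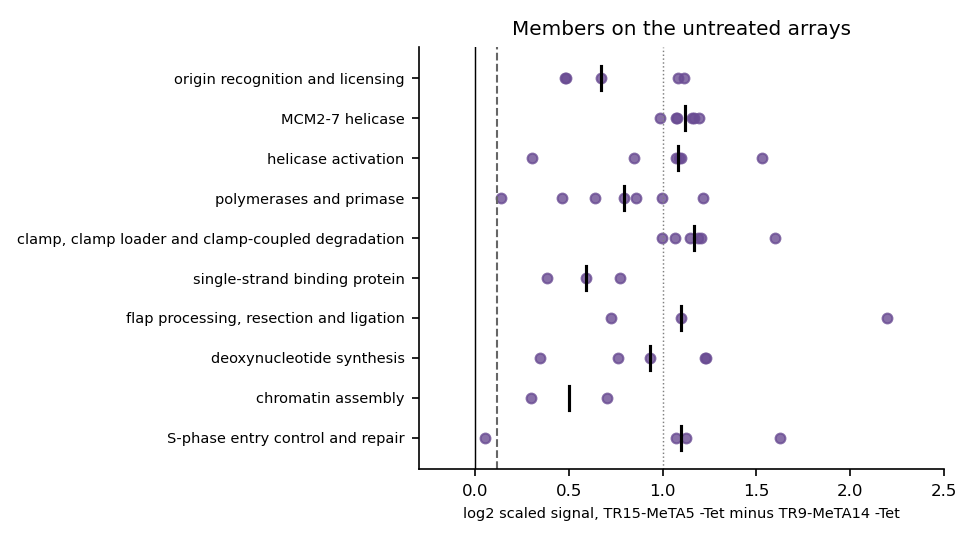
Log2 difference of scaled signal between the untreated arrays, TR15-MeTA5 -Tet minus TR9-MeTA14 -Tet, for the 47 members by role. Each point is 1 gene, black bars are medians of the role, the dashed line is the median of all genes (0.12) and the dotted line marks 2-fold. All members lie above 0 at this scaling, from 0.05 to 2.20, whereas 23 lie below 0 with spike-in scaling. Of all genes, 7999 of 13788 lie above 0 at this scaling.

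Many other genes of the same pathways, listed by function with earlier results of these data known, were also lower with tetracycline in TR9-MeTA14. Of 30 further DNA replication genes with a fold change in TR9-MeTA14, 13 were at least 2-fold lower and 1 higher, with medians of -0.95 in TR9-MeTA14 and -0.34 in TR15-MeTA5. Among all genes, 15.1% were at least 2-fold lower and 16.8% higher in TR9-MeTA14, and 2.21% were at least 2-fold lower in TR15-MeTA5. DSCC1, part of a clamp loader for sister chromatid cohesion, and TICRR, which acts with TOPBP1 in origin firing, had log2 fold changes of -2.56 and -0.58, and of -2.88 and -0.23. RECQL4, a helicase of the RecQ family, went the other way, with scaled signals of 6.67 and 53.9 in TR9-MeTA14 and 9.01 and 22.3 in TR15-MeTA5. It was higher in both lines, with log2 fold changes of 3.02 and 1.31 and an adjusted p of 0.141 by limma. CHTF18, another clamp loader subunit, had 0.58 and 0.09. Of 25 further S-phase and E2F-regulated genes, 19 were at least 2-fold lower in TR9-MeTA14, with medians of -1.64 in TR9-MeTA14 and -0.49 in TR15-MeTA5, where none of 26 was. E2F2, a relative of E2F1, had -2.99 and -0.65, and CCNA2, the cyclin of S and G2, had -2.68 and -0.75. SLBP, which binds histone mRNA, had 0.40 and -0.07, and UNG, which removes uracil from DNA, had -0.45 and -0.15. Between the untreated lines, the 2-fold cut-off was met upward in TR15-MeTA5 by 8.17% of all genes (1126 of 13788). Their median log2 difference was 0.12. Of the 30 replication genes outside the members, 3 (10%) met it, close to that share, with a median of 0.34. Among the S-phase and E2F-regulated genes it was met by 11 of 26, with a median of 0.80. The medians of both lists lay below the 1.07 of the members. The mitosis and spindle genes came closer to the members, with 16 of 34 at least 2-fold higher and a median of 0.92. Of these 34 genes, 33 lay above the median of all genes, as did 46 of the 47 members.

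Genes of mitosis and the spindle lay lower than the members. All 34 were at least 2-fold lower in TR9-MeTA14, with a median of -2.68, and 3 of 34 (CDK1, TOP2A and NUF2) in TR15-MeTA5, with a median of -0.72. The shares of all genes were 15.1% and 2.21%. NUF2, a kinetochore protein, had log2 fold changes of -3.74 and -1.04, and ASPM, a spindle pole protein, had -3.67 and -0.72. Even the least lowered of these genes by the mean of both lines, CCNB1 (-1.60 and -0.51) and BUB1B (-1.82 and -0.58), lay below the median of the members in each line. Their promoters differed in letters from those of the members: CHR letters were found in 23 of 29 (79.3%) and E2F letters in 3 (10.3%). Among the CDK inhibitors and pocket proteins, which restrain S-phase entry, 3 of 9 were at least 2-fold lower and 1 higher in TR9-MeTA14. The shares of all genes there were 15.1% lower and 16.8% higher. CDKN1C, the inhibitor p57, had scaled signals of 0.827 and 33.3 in TR9-MeTA14 and 3.54 and 56.5 in TR15-MeTA5, with log2 fold changes of 5.33 and 4.00 and an adjusted p of 0.023 by limma. CDKN1A, the inhibitor p21, had 0.41 and -0.12. CDKN2C, an inhibitor of CDK4 and CDK6, had -1.99 and -1.36, and RBL2, a pocket protein, had -1.82 and -0.60.

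Markers of luminal LNCaP cells were well above background on all 4 arrays for 7 of 7 genes, and some moved with the members. Their summed scaled signal was 448 and 179 in TR9-MeTA14 and 619 and 392 in TR15-MeTA5 (-Tet and +Tet). At least 2-fold lower were 3 of 7 in TR9-MeTA14 and 0 in TR15-MeTA5, against 15.1% and 2.21% of all genes. The log2 fold changes in TR9-MeTA14 were -4.00 for KLK2, -1.95 for KLK3 and -1.65 for HOXB13. Those of FOLH1 (-0.68), KRT18 (-0.86), CDH1 (0.08) and KRT8 (0.24) did not reach 2-fold. The basal cell markers KRT5, KRT14 and TP63 were not well above background on any array. Of 5 fibroblast markers, 1 (COL1A1) was well above background, with the list summing to 0.805 and 0.681 in TR9-MeTA14 and 0.147 and 0.235 in TR15-MeTA5. The 3 leukocyte markers (PTPRC, CD3E and CD14) summed to 0.309 and 1.32 in TR9-MeTA14 and 0.553 and 0.926 in TR15-MeTA5. Of these, CD14 was over 2-fold higher in both lines (3.27 and 2.25) and PTPRC in neither (0.24 and -0.62), while CD3E had 0.41 in TR9-MeTA14 and, not well above background in TR15-MeTA5 +Tet, -1.35 or lower in TR15-MeTA5. The part of these markers in the differences of the replication genes was not tested.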

How the data were processed

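Gene expression was measured in 4 samples, 1 per combination of line and treatment, so each group held 1 sample. The authors scanned the arrays and deposited the signal intensity of every spot, background-subtracted and detrended within each array but not normalized between arrays. The file headers name Agilent Feature Extraction 10.7.3.1, while the submitters' processing notes name 9.5.1. The deposited series table repeats these intensities on all 44495 rows and is no test of stability.

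Here, outlier spots (255 to 344 per array) were left out, log2 signals of a probe's spots were averaged, and the 75th percentile over non-control probes was subtracted. This lowered +Tet over -Tet ratios by 1.26-fold in TR9-MeTA14 and 1.48-fold in TR15-MeTA5. A probe entered when well above background on the brighter array. Where the dimmer array was not, its signal was raised, if needed, to the lowest one well above background on that array (13.9 to 19.2), and the decrease is given as at least that size. The array design was annotated on hg19. Probes were named by RefSeq accession (assembly GRCh38.p14), which paired 74.5% of them (25422 probes) with 1 gene. No probe of UBE2C, on the mitosis list, was paired. MCM4, MCM5, GINS4, POLD3, RPA2, RPA3 and CCNE2 had no promoter entry. Both lines were tested together with limma 3.58.1 in R 4.3.3 (cell line as a block, intensity trend, Benjamini-Hochberg adjustment over the 22808 probes detected well above background on 2 or more arrays), after the scripts were tested on simulated data. Figures and counts used Python 3.11.15 with pandas 2.3.3.

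Alternatives were the percentile over spots, quantile normalization, median and spike-in scaling, normexp with an offset of 50 on median pixel intensities followed by quantile normalization, the series table, all spots, other filters, the mean over probes, cut-offs of 1.5-fold and 3-fold, no block and no trend. The lowest 10% of all genes was added after values had been seen. The members and the other lists were chosen with earlier results of these data known. Scaled signals on all arrays are given for PCNA and MCM2 to MCM7, the 10 members with the largest decreases and the 5 with the largest increases by the mean of both lines (among members well above background on all arrays), members not well above background on an array, and members whose fold changes were at least 2-fold apart between lines. From each other list the 2 lowest and 2 highest genes by the same mean are named, and the 3 mitosis genes past 2-fold in TR15-MeTA5 were named after their values were seen. Some genes of the cell type marker lists are not reported here.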

Additional observations from a re-analysis of the deposited data

Results flagged for a closer look

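POLD3, the accessory subunit of polymerase delta, had log2 fold changes of opposite sign in the lines, each larger than 2 times the SD of a log2 ratio from replicate spots (0.38 in TR9-MeTA14 and -0.26 in TR15-MeTA5, a difference of -0.64). The same was seen outside the members for TIPIN, a fork protection protein, with -0.20 and 0.21 (a difference of 0.41). HELLS, a chromatin remodeler, was lower in TR9-MeTA14 (-2.42) and slightly higher in TR15-MeTA5 (0.20), a difference of 2.62. The CDK inhibitors CDKN2A (-0.61 and 0.47, a difference of 1.08) and CDKN2D (0.27 and -0.42, a difference of -0.70) also had opposite signs. These differences were not tested, because each group had 1 array. With spike-in scaling, the log2 fold change of POLD3 in TR15-MeTA5 was 0.10, so that its signs no longer opposed. Under the same scaling TIPIN in TR9-MeTA14 (-0.086) and CDKN2D in TR15-MeTA5 (-0.058) lay within 2 SD (0.175) of 0, whereas HELLS (-2.30 and 0.57) and CDKN2A (-0.50 and 0.84) kept opposite signs beyond it.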

How the results depend on the processing

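Arrays could not be paired by replicate number, because the groups share only number 1, with 1 array each. For the same reason no replicate could be left out. The arrays of a line were instead paired by the block for cell line in limma. No fold change of a member at or beyond 2-fold changed sign under any alternative, whereas smaller ones in TR15-MeTA5 did with spike-in scaling (26 below 0 in place of 43). Quantile normalization gave medians of -1.26 in TR9-MeTA14 (-1.12 relative to all genes) and 0.92 between the untreated lines, 12 members higher in untreated TR15-MeTA5, and 1 member lower in TR15-MeTA5 and in both lines. Spike-in scaling gave medians of -0.97, -0.031 and 0.030 in TR9-MeTA14, TR15-MeTA5 and between the untreated lines, 1 member higher in untreated TR15-MeTA5 and 3 members lower at an unadjusted p below 0.05 by limma. Normexp gave a median of -0.92 in TR9-MeTA14 (-0.85 relative to all genes), 0 members higher there, and between the untreated lines 7 members higher and a median of 0.72 (0.72 relative to all genes). Without a filter the median in TR9-MeTA14 was -1.21, the untreated difference relative to all genes 0.77 and the unadjusted count 25. The mean over probes gave -1.21 (-1.17 relative to all genes) and 0 members higher in TR9-MeTA14. At 1.5-fold, 11 members were lower in TR15-MeTA5 and in both lines, and 38 higher in untreated TR15-MeTA5. At 3-fold, 15 were lower and 0 higher in TR9-MeTA14, and 3 higher in untreated TR15-MeTA5. Without the block, 1 member was lower at an unadjusted p below 0.05. By the lowest 10% of all genes, 9 were lower in TR15-MeTA5. No alternative gave a member past an adjusted p of 0.05 by limma. The causes of these shifts were not tested. Of 94 single fold changes, 94 moved by more than the SD from replicate spots with spike-in scaling, 46 with normexp, 30 with quantile normalization and 9 with the mean over probes.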

Other observations

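A total of 10 members had a second probe. For MCM5, MCM7, PCNA, DUT, RFC3 and CCNE2 both probes were lower with tetracycline in each line. In MCM7 the dimmer probe gave log2 fold changes of -1.82 and -0.43 (TR9-MeTA14 and TR15-MeTA5), beside -1.67 and -0.31 for the brighter one. In RFC3, whose probes carry different RefSeq transcripts, the dimmer probe gave -1.88 and -0.38 beside -1.65 and -0.24. CHAF1A differed in sign between its probes in TR15-MeTA5 (0.16 for the brighter and -0.29 for the dimmer), and both RPA2 probes were slightly higher in each line.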
